A study of Mus musculus with 18 samples.

Results

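The large histone gene cluster of mouse chromosome 13 was examined for 5 methylation states of histone H3. Its members were the protein-coding genes between 21.5 and 24 Mb of chromosome 13 (GRCm38 RefSeq) whose symbol begins with H1f, H2ac, H2bc, H3c or H4c (Hist1h in older tables), which gave 53 of the 21631 protein-coding genes on the autosomes and chromosome X. They comprised 6 H1, 13 H2A, 14 H2B, 9 H3 and 11 H4 genes. All libraries were made from E14 cells, a line of pluripotent mouse embryonic stem cells kept in 2i/LIF medium, in which inhibitors of GSK3 and MEK and the cytokine LIF hold cells undifferentiated, with isotope-labelled arginine and lysine. Chromatin immunoprecipitation and sequencing gave 18 libraries in 9 groups of 2: untreated cells for H3K27me1, H3K27me2, H3K27me3, H3K36me2 and H3K36me3, without a spike-in, and cells given 10 µM EPZ-6438, or DMSO as the control, for 7 days, for H3K27me3 and H3K36me2, with Drosophila S2 chromatin added at 0.05% of the total. EPZ-6438 inhibits EZH2, a catalytic subunit of PRC2, which methylates H3K27. The labels do not say whether replicates were separate cultures, so the spread between them may be technical.

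Replication-dependent histone genes supply the histones that package newly copied DNA. They are transcribed mainly in S phase, most lack introns, and their mRNAs end in a stem-loop bound by the protein SLBP in place of a poly(A) tail. Transcription is driven by the coactivator NPAT within a nuclear compartment, the histone locus body. H3K27me3 marks genes silenced by Polycomb, H3K27me2 covers much of the silent genome, H3K27me1 and H3K36me3 are found over transcribed gene bodies, and H3K36me2 is spread over broad intergenic and genic regions. A few members serve the male germ line: H1f6 encodes the testis linker histone H1t, and H2ac1 and H2bc1 encode the testis variants of H2A and H2B.

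Depth set what could be read. Estimated mapped reads (in M, 1e6 reads) ranged from 16.3 to 84.4 M outside the H3K27me3 libraries of the inhibitor arm, which held 0.750 and 1.34 M. No input or total H3 library was used here, so nucleosome number at the members was not measured. Stem cell markers (8 genes, Pou5f1, Sox2 and Nanog among them) had a median H3K36me3 level of 5.42 times the library mean and H3K27me3 of 0.0706, against 1.12 and 4.93 for 8 genes of other lineages. The members are short, with a median length of 488 bases against 17329 over all genes, and 41 of 53 shared at least 1 window with another member, so neighbours are not independent measurements. H2bc6 (37455 bases), H2bc22 (14079), H2bc4 (8282) and H2bc23 (3788) are the members over 3 kb in the annotation.

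Members were split where neighbours lay more than 100 kb apart, which gave 4 sub-clusters. The first holds 17 members over 118 kb, the second 5 over 8.54 kb, the third 29 over 233 kb, and the fourth is the testis pair H2bc1 and H2ac1 at chr13:23933725-23934913. Divergent transcription is common: 9 pairs start head to head, each of 1 H2A and 1 H2B gene, with 163 to 280 bases between the starts.

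The DNA before the starts shows what the members share and where they differ. RefSeq promoter entries (GRCm38.p6) matched 50 of 53 members, and the 250 bases upstream of each start were searched on both strands for 4 motifs. The CCAAT box, bound by the factor NF-Y, was present in 42 of 50 members (84.0%, against 33.8% of 32851 promoters of the same length). Every H1, H2A, H2B and H3 entry held it, but only 3 of the 11 H4 entries did. The octamer bound by the factor OCT1, written ATTTGCAT, was present in 10 members (20.0% against 1.60%), of which 5 were H2A and 5 were H2B genes. Where it lies between the starts of a head-to-head pair, as at H2ac12 and H2bc12, the same letters count for both genes. Not every octamer gene is in such a pair (H2bc14 is not), and some pairs lack it, such as H2ac11 and H2bc11. A TATA box, searched for with the letters TATAAA, was present in 26 members (52.0% against 12.4%). The element described in H1 genes, AAACACA, was present in 9 of 50 members (against 6.25% of promoters), among them 5 of the 6 H1 genes. A match describes letters in this window, not a bound factor.

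The first sequences are the upstream regions of the only pair with H3K27me3 peaks (H2bc1, chr13:23934157-23934406, minus strand), of an H2B gene without one (H2bc14, chr13:21721802-21722043, plus strand) and of the member with the lowest H3K36me2 change under the inhibitor, which did not pass the test (H2bc8, chr13:23571221-23571399, plus strand, which is all the DNA between H2ac8 and H2bc8). Each is written 5′ to 3′ and ends at the base before the start, with any match to the motifs above, on either strand, in capitals. All 3 carry the CCAAT box and the octamer, while H2bc14 lacks TATAAA and H2bc8 lacks AAACACA. Every H2B entry holds the CCAAT box and 5 of 13 hold the octamer. These 3 chosen sequences therefore cannot show whether any of the motifs goes with the mark.
H2bc1: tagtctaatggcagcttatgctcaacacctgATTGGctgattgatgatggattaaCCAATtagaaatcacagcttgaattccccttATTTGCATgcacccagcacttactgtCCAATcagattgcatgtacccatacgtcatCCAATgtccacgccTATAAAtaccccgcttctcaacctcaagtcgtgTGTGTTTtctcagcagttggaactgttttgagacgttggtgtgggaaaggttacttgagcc
H2bc14: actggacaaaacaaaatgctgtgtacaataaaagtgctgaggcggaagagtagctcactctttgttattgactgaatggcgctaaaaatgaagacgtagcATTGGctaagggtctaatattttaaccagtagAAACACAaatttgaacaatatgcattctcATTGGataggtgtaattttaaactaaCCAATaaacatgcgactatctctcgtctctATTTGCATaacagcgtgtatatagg
H2bc8: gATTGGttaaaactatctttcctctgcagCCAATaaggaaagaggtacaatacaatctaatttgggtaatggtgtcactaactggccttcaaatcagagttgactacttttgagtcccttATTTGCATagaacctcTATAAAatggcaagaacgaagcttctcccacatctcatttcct

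The testis H1 gene and a somatic H1 gene are given next, since they differ in H3K27me2 and H3K27me3 below: H1f6 (chr13:23695561-23695810, plus strand) and H1f2 (chr13:23738557-23738806, plus strand). Both carry AAACACA and CCAAT in that order.
H1f6: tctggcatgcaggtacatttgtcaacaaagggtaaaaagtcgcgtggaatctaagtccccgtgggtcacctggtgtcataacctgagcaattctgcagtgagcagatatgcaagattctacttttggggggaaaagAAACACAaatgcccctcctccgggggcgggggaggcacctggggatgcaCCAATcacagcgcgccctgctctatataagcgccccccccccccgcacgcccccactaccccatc
H1f2: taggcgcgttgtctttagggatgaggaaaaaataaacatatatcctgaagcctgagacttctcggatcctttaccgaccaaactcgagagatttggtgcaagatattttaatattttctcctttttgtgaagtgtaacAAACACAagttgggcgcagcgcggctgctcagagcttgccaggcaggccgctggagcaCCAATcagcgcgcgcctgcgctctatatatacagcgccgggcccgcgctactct

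H4c17, H2ac23, H2bc23 and H2ac24 had almost no reads in any library, and part or nearly all of their upstream DNA also occurs at another member. Shown are H4c17 (chr13:21811496-21811745, plus strand), whose neighbour is H4c18 (chr13:21832198-21832447, minus strand), and H2bc23 (chr13:21810200-21810366, minus strand, the DNA between H2bc23 and H2ac23), most of which occurs, as its reverse complement, before H2ac24 (chr13:21833476-21833725, minus strand).
H4c17: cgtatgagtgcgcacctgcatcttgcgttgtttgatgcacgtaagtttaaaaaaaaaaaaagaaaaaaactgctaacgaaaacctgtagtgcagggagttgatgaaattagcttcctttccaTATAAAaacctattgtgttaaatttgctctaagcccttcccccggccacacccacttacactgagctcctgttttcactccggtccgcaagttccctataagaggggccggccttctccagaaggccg
H4c18: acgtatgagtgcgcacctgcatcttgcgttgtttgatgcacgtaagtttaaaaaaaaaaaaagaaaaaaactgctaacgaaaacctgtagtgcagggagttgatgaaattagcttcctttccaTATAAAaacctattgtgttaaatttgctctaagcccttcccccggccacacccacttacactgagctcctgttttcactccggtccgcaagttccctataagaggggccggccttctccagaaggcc
H2bc23: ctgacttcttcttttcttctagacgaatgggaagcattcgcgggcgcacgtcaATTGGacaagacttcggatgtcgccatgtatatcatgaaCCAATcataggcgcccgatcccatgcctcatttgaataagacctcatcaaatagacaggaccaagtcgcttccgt
H2ac24: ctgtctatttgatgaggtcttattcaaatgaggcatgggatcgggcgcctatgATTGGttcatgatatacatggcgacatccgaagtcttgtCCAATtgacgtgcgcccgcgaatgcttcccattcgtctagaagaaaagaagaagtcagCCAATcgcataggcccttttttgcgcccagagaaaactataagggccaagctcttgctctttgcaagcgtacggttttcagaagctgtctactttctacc

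Of the 30-base words in the 250 bases before H4c17, 99.5% also occur before H4c18, and 92.3% of those before H2ac24 occur before H2bc23, words being matched on both strands and members whose promoter entries overlap, such as head-to-head partners, not being compared with each other. For H2ac23 the highest share in a member compared in this way was 54.8%, in H2ac24. Over all 18 libraries the window reads were 0 for H2ac23, 2 for H4c17, 3 for H2bc23 and 7 for H2ac24, against 199 for H4c18 and 26514 for the long H2bc6. With overlapping entries left out in the same way, 41 of 50 members share no such word with another member. How reads with several equally good positions were treated is not given in the sources used here, so a low level at these 4 genes cannot be told apart from unplaced reads. They are counted in the 53 below. Windows without reads in any of the 18 libraries also made up 10 of 33 at H2bc22 and 1 of 5 at H4c18. The same limit holds for those windows.

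In untreated cells most of the 53 members had levels of the 5 marks below those of the median gene. Levels are mean reads per 1 kb window over the gene with 1 kb on each side, divided by the mean over every window of that library, so that 1 is the library average. The median member stood at 0.386 for H3K27me1, against 1.21 over all protein-coding genes. For H3K27me2 the medians were 0.102 and 1.19, and H3K27me3 stood at 0.0187 and 0.549. The H3K36me2 medians were 0.436 for members and 1.3 for all genes, and those of H3K36me3 were 0.268 and 1.73. For each of the 5 marks the median member lay below the median gene. The regions differ in kind, since the median length was 488 bases for members and 17329 over all genes. A member's region is thus mostly its start and flanks, and that of most genes mostly body. Genes were not matched for length, so the part of length in this and the next comparison was not tested.

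Almost all of the 53 members lay below the all-gene median: 52 in H3K27me1 and also in H3K27me2, 50 in H3K27me3, 49 in H3K36me2 and 53 in H3K36me3. Below the 10th percentile of all genes lay 37, 42, 42, 6 and 7 members in the same order. For H3K27me3, 18 members had 0 reads in both untreated libraries. A count of 0 over a 5-window gene allows a level of up to 0.125 in replicate 1 and 0.149 in replicate 2 (3 reads, counting error only), so these members cannot be ranked among themselves. The exceptions above the library average were few and are named below: H2bc6 and H2bc4 for H3K27me1, H2bc6 and H1f6 for H3K27me2, H2bc1 and H2ac1 for H3K27me3 and H3K36me3, and all 5 of these genes for H3K36me2.

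**Figure D1:**
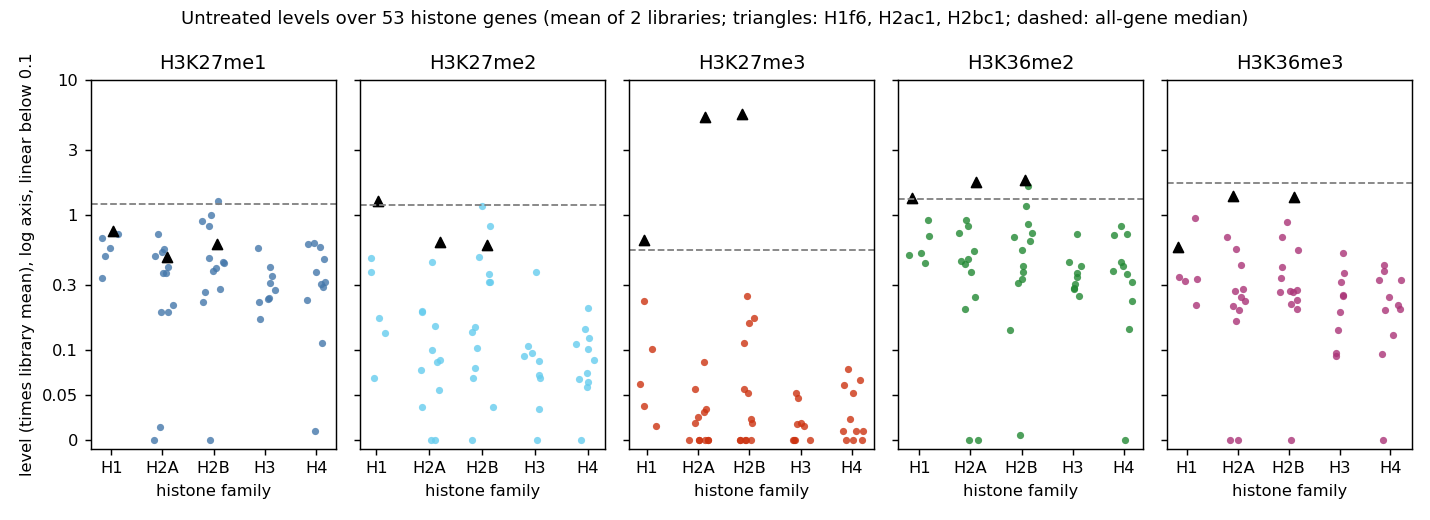
Untreated level of each of the 53 members (vertical axis, times library mean, log scale that is linear below 0.1; mean of 2 libraries) by histone family (horizontal axis) for 5 marks; triangles are H1f6, H2ac1 and H2bc1 and the dashed line is the all-gene median. Most points lie below the line for every mark, and H2ac1 and H2bc1 stand at 5.27 and 5.59 for H3K27me3.

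The testis pair carried the Polycomb mark. H2bc1 had untreated H3K27me3 levels of 6.18 and 5.01 in the 2 libraries and 7.5 and 6.74 in the DMSO libraries. H2ac1 had 5.85 and 4.69 untreated, and 7.08 and 6.04 after DMSO. The other 51 members lay far lower in each of these libraries. H1f6 was the highest of them at 0.562 and 0.734 untreated and at 0.549 in DMSO replicate 1, while in DMSO replicate 2 H1f4 (0.503) was above H1f6 (0.472). The starts of H2bc1 and H2ac1 lie 280 bases apart and their regions share windows, so the pair is 1 place rather than 2 measurements. H3K27me2 over H2bc1 was 0.441 and 0.747, and H3K27me1 was 0.616 and 0.604, both under the library average.

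H3K36me2 and H3K36me3 were also above the library average over the pair, though H3K36me3 lay below the all-gene median at both genes. In the comparison of marks below, H3K36me3 was called neither higher nor lower at either gene. H2bc1 had H3K36me2 of 1.54 and 2.10 and H3K36me3 of 1.41 and 1.29, and H2ac1 had 1.51 and 2.01 and 1.49 and 1.26. At the window centred on the H2bc1 start, the mean of the 2 untreated libraries was 7.38 for H3K27me3, 2.14 for H3K36me2, 1.86 for H3K36me3, 0.650 for H3K27me2 and 0.754 for H3K27me1. At 2 kb along the chromosome H3K27me3 was 2.19, but it was high again further out, at 5.40 at -67.0 kb and 3.38 at 14.5 kb. These are levels in bulk cells, so whether the marks share a nucleosome or an allele was not measured.

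**Figure D2:**
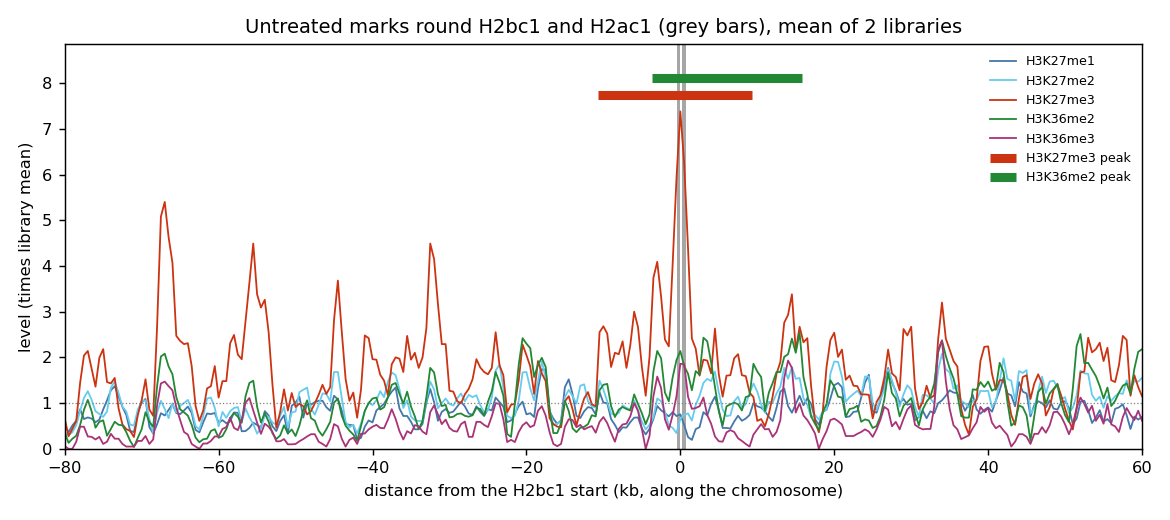
Untreated level (vertical axis, times library mean, mean of 2 libraries) of 5 marks against distance from the H2bc1 start in kb along the chromosome; grey bars are H2bc1 and H2ac1, and the thick lines are the authors' H3K27me3 and H3K36me2 peaks that cover them. H3K27me3 reaches 7.38 at the start and falls to 2.19 at 2 kb. Other rises lie on both sides, among them 5.40 at -67.0 kb and 3.38 at 14.5 kb.

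The authors' peak lists held few members, in shares set beside those of all genes without matching for length. A member counted as in a peak when at least 50% of its gene with 1 kb each side lay in peaks. H3K27me3 peaks held 2 members (3.77%, against 27.1% of all genes), H2bc1 and H2ac1, in a 20.0 kb peak at chr13:23923501-23943500 that ranked 7522 of 43094 by the authors' score. H3K36me2 peaks held 4 members (7.55% against 48.1%), which were H2bc6, H1f6, H2bc1 and H2ac1. The pair lay in a 19.5 kb H3K36me2 peak at chr13:23930501-23950000. H3K27me1 and H3K27me2 peaks held 0 members, against 40.6% and 42.5% of all genes.

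Among the linker histone genes, H1f6 stood apart from its 5 somatic relatives. Its H3K27me2 was 1.32 and 1.22, while H1f1, H1f2, H1f3, H1f4 and H1f5 lay between 0.0322 and 0.537 in the same libraries, so the groups did not overlap. Its H3K36me2 was 1.71 and 0.973, and the lower value still exceeded that of each somatic H1 gene, the highest of which was H1f5 at 0.898 and 0.930. H1f5 had the highest H3K36me3 of the family at 0.929 and 0.957, against 0.668 and 0.478 for H1f6. H1f2 had the lowest mean of the 6 for all 5 marks, with H3K27me1 of 0.505 and 0.171, H3K27me3 of 0 and 0.0312 and H3K36me3 of 0.261 and 0.172. Its H3K27me3 values lay under what a count of 0 allows, so its place for that mark is not settled. H1f4 had H3K27me3 of 0.222 and 0.234, above the 0.0187 of the median member.

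In the H2A family, other than H2ac1, H2ac6 had the highest H3K27me1 at 0.763 and 0.676. H2ac23, with no reads, stood at 0 for each mark, which cannot be told apart from unplaced reads. For H3K27me3, where 18 members had 0 reads in both libraries, it was not alone at 0. In the H2B family H2bc6 led for H3K27me1 at 1.43 and 1.08 and for H3K27me2 at 1.27 and 1.04. Its annotated body, the longest, holds authors' peaks of H3K27me1, H3K27me2 and H3K36me2. H2bc15 had 0 H3K27me3 reads in both libraries, one of 5 such H2B genes out of 14.

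The H3 and H4 genes had H3K27me3 levels under what a count of 0 allows. In the H3 family the highest was H3c1 at 0.0471 and 0.0562, and 4 of 9, H3c6 among them, had no reads. H3c11 led the family for H3K27me1 (0.636 and 0.495), H3K27me2 (0.355 and 0.395) and H3K36me2 (0.742 and 0.700), and H3c8 for H3K36me3 (0.704 and 0.344). The lowest were H3c7 for H3K27me1 (0.205 and 0.133) and H3K36me3 (0.117 and 0.0689), H3c3 for H3K27me2 (0 in both) and H3c1 for H3K36me2 (0.281 and 0.220). With 2 libraries per mark, the order within the family was not tested.

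Of the H4 genes, H4c11 had the highest H3K27me2 (0.107 and 0.301) and H3K27me3 (0.0392 and 0.117). H4c4 led for H3K27me1 (0.880 and 0.347) and H3K36me3 (0.587 and 0.258), and H4c6 for H3K36me2 (0.742 and 0.921). H4c17 was lowest except for H3K27me3, where H4c12 and 2 others also had no reads. The replicates of H4c4 lay further apart than those of H4c6 for H3K27me1 (0.538 and 0.411).

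The members sat in local troughs. For the 41 members with a known start, other than the 3 testis genes, those over 3 kb and those with almost no reads, H3K36me2 in the window at the start averaged 0.386 and 0.338 in the 2 untreated libraries. At 2.5 kb downstream it was 1.09 and 0.987, and at 2.5 kb upstream 0.925 and 0.864. H3K27me2 was 0.0865 and 0.113 at the start and 0.502 and 0.543 at 2.5 kb downstream. H3K27me1 was 0.464 and 0.193 at the start and 0.995 and 0.804 downstream, and H3K36me3 was 0.265 and 0.258 against 0.756 and 0.585. Each of these 4 marks was lower at the start than at both flanks in both libraries. Starts of other genes are not set beside these here, so whether the dip is particular to the members was not tested.

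**Figure D3:**
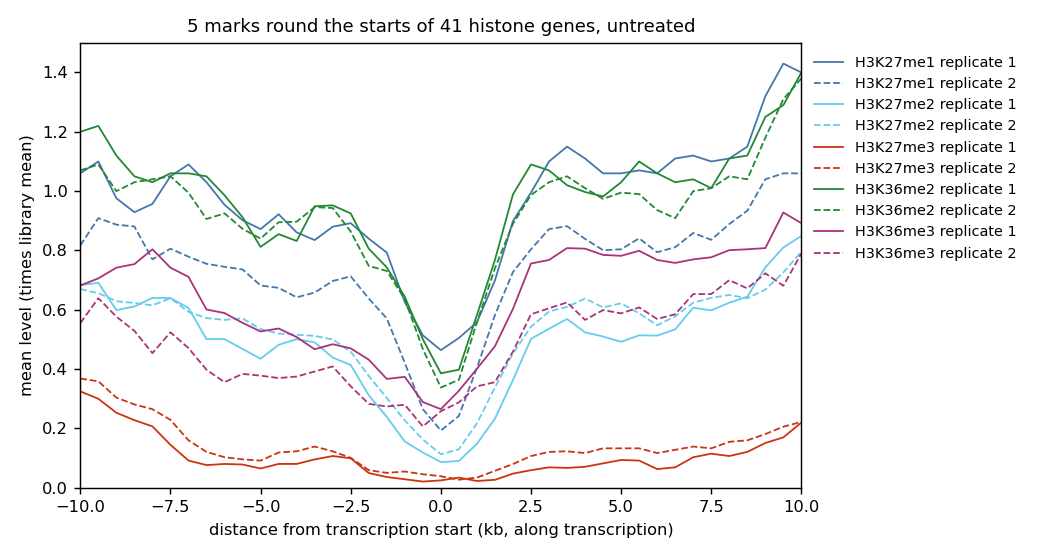
Mean untreated level (vertical axis, times library mean) at distances in kb from the transcription start, along transcription, for 41 members; solid and dashed lines are replicates 1 and 2. H3K36me2 falls to 0.386 and 0.338 at the start, and H3K27me3 is low across the stretch shown.

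H3K27me3 was low over the whole stretch round these starts, at 0.0249 and 0.0389 at the start and 0.0593 and 0.107 at 2.5 kb downstream. In the DMSO libraries it was 0.0893 and 0.0944 at the start. After the inhibitor the corresponding levels were 0.777 and 0.903, against 0.453 and 0.434 at 2.5 kb downstream, on few reads. Here, relative to its own library, the residual signal was not lower at the starts than beside them.

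The sequence between genes gave the contrast. The 325 windows of members were compared with 2664 windows of the interval outside every annotated gene, and the ratio of their means in untreated cells was, for H3K27me1, 0.609 ± 0.142 (SD, n = 2). It was 0.608 ± 0.0369 in H3K27me2, 0.689 ± 0.0861 in H3K27me3, 1.03 ± 0.113 in H3K36me2 and 0.861 ± 0.0606 in H3K36me3. These means lean on a few genes, because H2bc6 spans 37455 bases and H2ac1 and H2bc1 hold much of the H3K27me3. Without the 4 members over 3 kb and without H2ac1 and H2bc1, a choice made after seeing the data, the ratios were 0.397 ± 0.133, 0.232 ± 0.0334, 0.183 ± 0.0368, 0.624 ± 0.0742 and 0.599 ± 0.0352 in the same order. These short members were thus below the sequence between genes for all 5 marks by the mean over windows. Over all 53 members the direction for H3K36me3 turned with the median over windows, at 1.42 ± 0.118. The H3K36me2 ratio had no settled side of 1: its libraries gave 1.11 and 0.951, and the mean was 0.770 ± 0.0333 against sequence within the sub-clusters, 0.956 ± 0.0953 outside protein-coding genes only and 0.981 ± 0.230 by the median over windows.

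The balance of the marks was then read within each gene. Each mark was compared with the mean of the other 4 in the 10 untreated libraries (limma on log2(level + 0.1), Benjamini-Hochberg over 21292 genes), and 49 members had the 10 window reads needed. H3K27me3 was lower than the other marks at 45 members and higher at 2, against a background of 54.0% of genes lower and 32.4% higher. The 2 were H2bc1, by 2.40 ± 0.17 (SE, limma adjusted p = 2.25e-07), and H2ac1, by 2.37 ± 0.16 (adjusted p = 1.22e-07), on the log2 scale. The lowest values were at H1f5 (-2.38), H2bc12 (-2.17) and H2ac10 (-2.09), which had 0 reads in 1 or both untreated H3K27me3 libraries, so these sizes depend on the added 0.1 and give no order. The member median was -1.57 with 0.1 added, -3.55 with 0.01 and -0.56 with 0.5.

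H3K36me2 was higher at 38 members and lower at 0 (background 30.8% higher and 21.7% lower). The largest differences were at H4c6 (1.79 ± 0.20), H4c9 (1.79 ± 0.17) and H2ac11 (1.69 ± 0.14), and the smallest at H4c3 (-0.04), H2bc8 (0.20) and H1f4 (0.29). H3K27me1 was higher at 34 and lower at 2 (48.0% and 32.2%), highest at H2ac8 (1.31), H2bc13 (1.27) and H3c6 (1.18). Without H3K27me1 replicate 1 the 34 became 13 of 49, a share below the background. The 2 lower were H2ac1 (-1.61) and H2bc1 (-1.34), followed by H1f6 at -0.24 (adjusted p = 0.338 in limma). This test compares marks within a gene, so a mark can be higher than the others at a gene where all levels are low. Each mark is set against the mean of the others, so the low H3K27me3 raises the differences of the other marks. The sizes also depend on the added value. With 0.01, 0.1 and 0.5 added, the highest H3K36me2 difference was 2.93, 1.79 and 0.92 and the median 1.69, 1.04 and 0.46. For H3K27me1 the highest was 2.38, 1.31 and 0.70 and the median 1.45, 0.77 and 0.32.

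H3K27me2 was lower than the other marks at 23 members and higher at 2 (23.0% and 24.4%). The 2 were H1f6 (0.65) and H2bc6 (0.49), while H2bc22 at 0.38 missed the threshold (limma adjusted p = 0.076). The lowest differences were at H3c3 (-1.50), H2bc1 (-1.43) and H2ac10 (-1.41). H3c3 had no reads in either H3K27me2 library, so its size depends on the added 0.1 and its place in this order is not settled. The lowest member difference was -3.69 with 0.01 added and -1.09 with 0.5. Without H3K27me2 replicate 1 the share of members called lower was close to that of all genes, and neither H1f6 nor H2bc6 was called higher. The member median was then -0.29 in place of -0.44. H3K36me3 was higher at 16 and lower at 2 (48.7% and 37.4%). It was highest at H3c8 (1.42), H3c3 (1.2) and H2ac10 (1.16), and lower at H1f6 (-0.64) and H2bc6 (-0.37), with H3c11 at -0.38 not called. Without H3K36me3 replicate 1 the counts were 10 higher and 4 lower, and 0 were lower without replicate 2. The median difference was 0.27 over the members tested and 0.24 over all genes, but 0.68 and 0.28 with 0.01 added and 0.05 and 0.15 with 0.5, so the order of the medians turned with the added value.

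Histone genes elsewhere in the genome were read in the same way. The 13 replication-dependent genes on other chromosomes had a median H3K27me1 of 0.685, H3K27me2 of 0.240, H3K27me3 of 0.0643, H3K36me2 of 0.829 and H3K36me3 of 0.627. All 5 medians lay below the all-gene medians and above those of the 53 members, a difference that was not tested. One of the 13, H2bu2, named after its values were seen, had H3K27me3 of 2.41 ± 0.254 (SD, n = 2) and was called higher for that mark, by 1.37 ± 0.24 (SE, limma adjusted p = 2.89e-04). The 11 replication-independent histone genes, H3f3a and Cenpa among them, had a median H3K36me3 of 3.78, and 9 of 11 were called higher for that mark (background 48.7%). Genes for histone regulators and mRNA processing (18, with Npat and Slbp) had a median of 4.83, and all 18 were called higher, against the same background.

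Genes interspersed with the cluster had other levels of H3K27me2, a difference that was not tested. The 61 other protein-coding genes of the interval, 36 of them Vmn1r pheromone receptors, had a higher median H3K27me2, near the library average, than the 0.102 of the members. Their median H3K36me2 was 0.626 against 0.436, and their median H3K36me3 was 0.296 against 0.268. For H3K36me3, 49 of 60 tested were called lower than the other marks, and 2 of 49 members, against 37.4% of all genes. For H3K27me3, 15 of the 60 were called higher and 37 lower, against 32.4% and 54.0% of all genes. The calls differed by family: 4 of 4 Slc17a genes were higher and 0 of 36 Vmn1r genes. A call of higher H3K27me3 was thus not limited to H2bc1 and H2ac1 within the interval.

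Under EZH2 inhibition H3K27me3 fell over the members, as it did across the genome. On the deposited spike-in scale the testis pair had a mean of 355 and 228 scaled reads per window after DMSO and 0.799 and 0.158 after EPZ-6438, a log2 change of -9.64, or 800-fold lower. That change was -10.81 without EZH2i replicate 1 and -8.48 without EZH2i replicate 2. The inhibitor values rest on 17 and 8 window reads over H2bc1. The 50 other members, without H1f6 and the pair, went from 3.38 and 3.02 to 0.0548 and 0.0392, 68.9-fold lower. All windows of the genome went from 48.7 and 35.7 to 0.0912 and 0.0668, 534-fold lower. The arms did not overlap in any of these, and the exact two-sided permutation test gave p = 0.333, the smallest that 2 against 2 libraries allow.

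**Figure D4:**
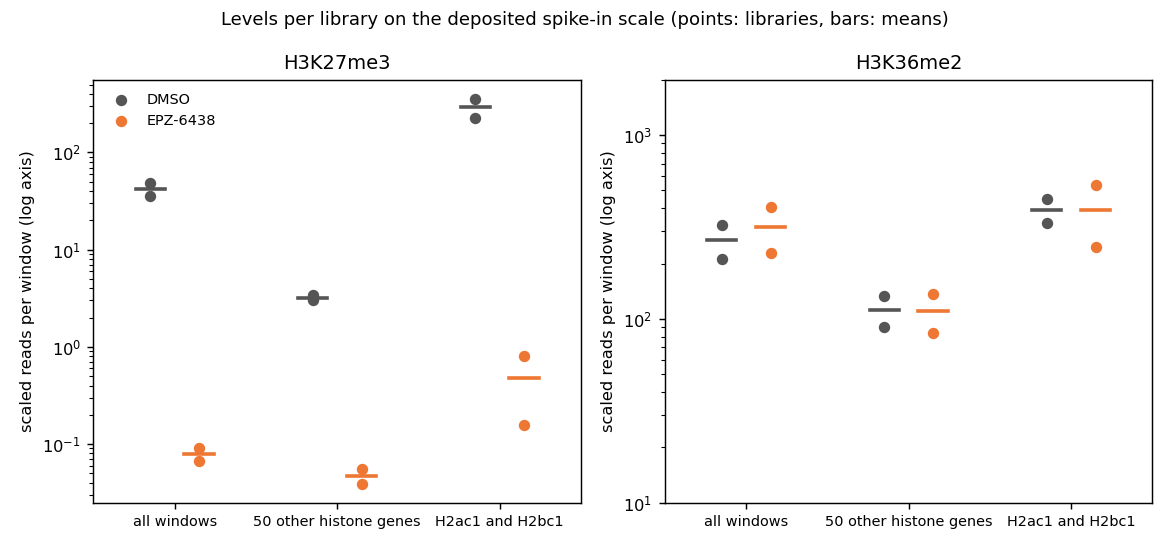
Scaled reads per window (vertical axis, log scale, deposited spike-in scale) for H3K27me3 and H3K36me2 over all windows, the 50 members other than the testis genes, and H2ac1 with H2bc1; points are libraries, bars are means, grey is DMSO and orange EPZ-6438. H3K27me3 is lower with EPZ-6438 in each set, and the H3K36me2 arms overlap in each set.

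Member by member, 27 of 53 had enough reads to be tested for H3K27me3, and 22 were lower and 0 higher (limma on log2(scaled reads + 1), adjusted p under 0.05), against a background of 99.7% of genes lower. Those 22 were also the number with an unadjusted p under 0.05, and limma-voom called 27 lower and 0 higher. Both inhibitor libraries lay below both DMSO libraries at 22 of 27 (81.5%, against 99.8% of genes). Since the inhibitor libraries hold so few reads, a member passed the filter mainly through its DMSO reads, and the count supports nothing further. The lowest changes were at H2bc1 (-7.68 ± 0.31 SE, limma adjusted p = 2.53e-08), H2ac1 (-7.58 ± 0.32) and H1f6 (-4.45 ± 0.27), and the changes nearest 0 at H4c9 (-0.74), H2ac6 (-1.32) and H2bc14 (-1.41), none of which passed. At H1f6 the window reads numbered 27 and 30 in the DMSO libraries and 0 and 2 in those of the inhibitor. The added 1 understates the change at genes with low values. Even the pair, at 0.799 and 0.158 scaled reads per window after the inhibitor, lay below that 1. The sizes and order of these changes therefore mostly restate the DMSO levels and give no order of response.

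Relative to the library mean, the members other than the testis genes stood higher after the inhibitor. The level of these 50 went from 0.0694 and 0.0847 after DMSO to 0.601 and 0.587 after the inhibitor, a log2 change of 2.95 with arms that did not overlap (exact permutation p = 0.333, the smallest possible). The 27 members tested include the 3 testis genes. Of these 27, 11 (40.7%) had both inhibitor libraries above both DMSO libraries, against 49.8% of genes. Another 2 (7.41%) had both below, against 29.5%. They passed the filter mainly through DMSO reads, so these counts also support nothing further. The pair went from 7.29 and 6.39 to 8.76 and 2.37 (exact permutation p = 1.00), so its inhibitor libraries disagree by more than the arms do. The ratio of member windows to windows between genes was 0.727 and 0.801 after DMSO and 1.35 and 1.08 after the inhibitor. Without the 4 long members and the pair it was 0.257 and 0.286, then 1.10 and 1.04. These 2 inhibitor ratios rest on only 40 and 84 window reads over the members. On these few reads the contrast between short members and their surroundings was not seen in the residual signal. Background in the precipitation was not measured, and its part in this result was not tested.

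H3K36me2 over the members differed by less than the spread between replicates on the spike-in scale. The mean over the 53 was 152 and 104 after DMSO and 156 and 93.9 after EPZ-6438, which is a log2 change of -0.05 ( exact permutation p = 1.00). Of 49 members tested with limma, 0 were called higher (background 0.141% of genes) and 0 lower (0.00942%, 0.151% in either direction), 1 had an unadjusted p under 0.05, and limma-voom called 0 with 1 at that level. The median change was -0.05 against 0.07 over all genes. H2bc8, of the pair whose shared upstream DNA is printed above, had the lowest change at -1.58 ± 0.50 SE (limma adjusted p = 0.380), from 95.0 and 53.4 to 19.0 and 28.1 scaled reads per window. Both inhibitor libraries lay below both DMSO libraries at 4 of 49 members (8.16%, against 0.574% of genes) and above at 2 (4.08% against 7.25%). The members are shorter than most genes and share windows, and the difference in share was not tested. With library totals the share below was close to that of all genes, as given further down. After H2bc8 came H2ac8 at -0.94, sharing 4 of 5 windows with it, and then H4c3 at -0.68.

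Few reads lie behind H2bc8: 47 and 24 window reads under DMSO, then 10 and 13 with EPZ-6438. In the untreated libraries, which have no spike-in, its H3K36me2 level was 0.109 and 0.169 times the library mean, against 0.294 and 0.250 after DMSO and 0.0471 and 0.124 after the inhibitor. Both untreated values lay below both DMSO values, and 1 of them lay between the inhibitor values. With windows limited to those overlapping the gene body the change was -2.45 (limma adjusted p = 0.00113), the only member called under that choice. The highest changes were at H3c2 (0.53), H2ac11 (0.49) and H2bc7 (0.48), none of them called.

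Relative to library totals, the 53 members had a mean H3K36me2 of 0.469 and 0.485 after DMSO and 0.387 and 0.415 with EPZ-6438, a log2 change of -0.25 (exact permutation p = 0.333, the smallest possible). The median over all genes moved by -0.13 on that scale, where the spike-in scale gave 0.07. Both inhibitor libraries lay below both DMSO libraries at 20 of 49 members (40.8%), close to the 37.9% of all genes, so the share is no result about the members, and above at 1 (2.04% against 17.9%). H2bc1 went from 1.49 and 1.63 to 1.36 and 1.18 and H1f6 from 1.4 and 1.42 to 0.982 and 1.37. Neither had overlap between the arms on this scale, but on the spike-in scale those of the testis pair overlapped. There the pair had 449 and 331 after DMSO and 538 and 247 with EPZ-6438. The ratio to windows between genes was 0.900 and 0.930 after DMSO and 0.797 and 0.870 with EPZ-6438 (log2 change of -0.14, exact permutation p = 0.333).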

How the data were processed

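ChIP-seq of 5 histone marks was analysed in 18 libraries (9 groups of 2). Per the submitters' processing notes, Trim Galore 0.4.2, Bowtie2 2.2.6.2 and SICER were used with mm10 and dm3. The deposited tracks give the authors' log2(1 + scaled reads) per 1000-base window every 500 bases. The values were whole multiples of 1 factor per library (tolerance 0.02), taken as RPM when untreated and as the authors' spike-in factor otherwise, though its derivation is not given in the sources used here. A read touched 2.65 windows. The score in the authors' peak lists, per the deposited files, was used only for ranks.

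Levels were means over genes with 1 kb flanks (RefSeq, GRCm38.p6). limma 3.58.1 (R 4.3.3) was run on those of 21631 genes with at least 10 window reads (20936 for H3K27me3 and 21236 for H3K36me2 under EZH2i, 21292 between marks), on log2(scaled reads + 1) for EZH2i and log2(level + 0.1) between marks, with Benjamini-Hochberg adjustment. Sums used Python 3.11.15, numpy 2.4.6, pandas 2.3.3 and scipy 1.17.1. Named genes were the testis and H1 genes, the highest and lowest of each other family per mark, and the 3 largest rises and falls per limma comparison. Other genes named were chosen after their values were seen. Members and lists were chosen with earlier results of these data known. The EZH2i fit was tried on simulated data with library totals as the scale, not the deposited scale of the reported test. There, the fit for H3K27me3 recovered 6 of 199 genes changed 4-fold, with 149 false calls. It recovered 184 of 200 changed 64-fold, with 339 false calls. The fit for H3K36me2 recovered 190 and 200 of 200, with 36 and 23 false calls. These rates thus do not describe the test on the deposited scale. Alternatives were other scalings, pseudocounts, filters, limma-voom, a replicate block, gene bodies alone and leaving out each library.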

Additional observations from a re-analysis of the deposited data

How the results depend on the processing

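Scale decided the H3K27me3 direction under EZH2 inhibition. Genes called higher and lower numbered 7701 and 2118 with library totals, 8848 and 9154 with median centring, and 6622 and 990 with library totals and the replicate block. Members called higher and lower numbered 6 and 1, 21 and 2, and 6 and 1 in that order, and 35 were lower with no filter. The all-gene median was -4.73 on the deposited scale and 0.37 with library totals, where the mean member level changed by 1.17 in place of -7.89. Median centring put H1f6 at 0.29. For H3K36me2, genes higher and lower numbered 0 and 0 with library totals (with or without the replicate block), median centring, a pseudocount of 10 and limma-voom, 60 and 12 with a pseudocount of 0.1, and 62 and 4 with gene bodies alone, and 4 were lower with no filter. Leaving out 1 library gave 6 to 111 higher and 0 to 12 lower.

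The replicate block gave 2324 and 57 genes for H3K36me2 and called 1 member higher and 3 lower, and gene bodies alone called 1 lower. Same-numbered libraries share only a number, and their deviations correlated at 0.103 for H3K27me3 and 0.468 for H3K36me2 over 2 pairs. The change in mean H3K36me2 was 0.04 as a median over genes and ran from -0.42 (without EZH2i replicate 1) to 0.32 (without EZH2i replicate 2), and was 0.23 without DMSO replicate 1. Over the left-out libraries H2ac1 ran from -0.67 to 0.54, H2bc1 from -0.61 to 0.42, H1f6 from -0.37 to 0.21 and H4c3 from -1.63 to 0.27. Changes above 0 arose without DMSO replicate 1 (H2ac1 0.13, H2bc1 0.14, H1f6 0.21) and without EZH2i replicate 2 (H2ac1 0.54, H2bc1 0.42, H1f6 0.10, H4c3 0.27).

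Between marks, leaving out 1 library moved the members higher for H3K27me1 from 13 (without H3K27me1 replicate 1) to 40. For H3K27me2 it gave 0 to 3 higher and 9 to 23 lower, with the lowest of each without H3K27me2 replicate 1. For H3K36me3 it gave 10 to 20 higher and 0 to 4 lower. A pseudocount of 0.01 gave 1 higher and 12 lower for H3K27me2 and 1 lower for H3K36me3, and one of 0.5 gave 7 higher for H3K36me3.

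Ratios to windows between genes depended on the long members and the testis pair. Without the members over 3 kb they were 0.40 (H3K27me1), 0.247 (H3K27me2), 0.669 (H3K36me2) and 0.656 (H3K36me3), and without these and the pair 0.397, 0.232, 0.624 and 0.599, with 0.183 for H3K27me3. Without the pair alone H3K27me3 was 0.384. Medians over windows gave 0.262 (H3K27me2), 0 (H3K27me3) and 1.42 (H3K36me3), gene bodies alone 0.674 (H3K27me2), and windows within sub-clusters 0.770 (H3K36me2) and 0.662 (H3K36me3). The median over windows gave no H3K27me3 ratio under the inhibitor. With any overlap 4, 1 and 8 members lay in H3K27me1, H3K27me2 and H3K36me2 peaks, against 64.6%, 63.9% and 70.5% of all genes. Wholly in H3K36me2 peaks lay 2, against 22.2% of all genes. The cause of these shifts was not tested. The 0.750 and 1.34 M reads of the H3K27me3 inhibitor libraries limit the precision of that arm.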
